A study of Homo sapiens with 4 samples.

Results

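CTCF binding regions that held a peak in both aclarubicin lists but in only 1 of the 2 daunorubicin lists were described in K562, a human erythroleukaemia cell line. The members were chosen by the peak calls themselves. The intervals of all 4 peak lists were merged where they shared at least 1 bp on chromosomes 1 to 22 and X, which gave 13959 regions. A region called in both aclarubicin lists and in exactly 1 daunorubicin list was a member. There were 1376 members, of which 476 had their daunorubicin peak in replicate 1 and 900 in replicate 2. They are called replicate 1 members and replicate 2 members below. The data are CTCF chromatin immunoprecipitation and sequencing (ChIP-seq) of K562 cells. Each drug was given at 10 µM for 4 hours, and each has a pair of libraries that the labels call biological replicates. No untreated library was used here, so each value sets 1 drug against the other, and no member can be called lost or gained relative to untreated cells. Because the calls that chose the members are also the contrast between the drugs, the strength of the peaks is given as a description, without tests. No member has a value in all 4 libraries.

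CTCF is a zinc-finger protein that binds a long, well-defined DNA motif. It stops the cohesin complex as cohesin extrudes chromatin loops, so that its sites form many loop anchors, domain boundaries and insulators. Aclarubicin and daunorubicin are anthracyclines, planar drugs that slide between DNA base pairs. Daunorubicin in addition traps topoisomerase II on broken DNA. Occupancy of CTCF sites is graded, and a peak caller turns this gradient into present or absent.

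The members made up 15.6% of the 8823 aclarubicin consensus regions, those called in both aclarubicin lists (95% Wilson interval 14.9% to 16.4%, which covers counting error only). Another 4121 consensus regions were called in all 4 lists and 3326 in neither daunorubicin list. Daunorubicin replicate 1 held a peak at 52.1% of the consensus regions and replicate 2 at 56.9%. The replicate 2 members were 65.4% of all members (62.9% to 67.9%). This balance depended on list length: with each list reduced to its 5886 peaks of highest −log10 p there were 378 replicate 2 and 329 replicate 1 members. Members were 8.10% of the regions of the replicate 1 list (7.43% to 8.82%) and 13.6% of those of the replicate 2 list (12.8% to 14.4%). In the opposite direction, 307 of the 4871 regions called in both daunorubicin lists had a peak in exactly 1 aclarubicin list, a share of 6.3% (5.65% to 7.02%). The lists searched differ in length, with 10633 and 10711 peaks under aclarubicin and 5886 and 6638 under daunorubicin, so the 2 shares are set side by side without a test.

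Under aclarubicin the members were peaks of middle strength. The fold of a peak is the authors' enrichment over background, and its percentile is its rank within its own list. In aclarubicin replicate 1, the median fold percentile was 52.0 at replicate 1 members and 58.4 at replicate 2 members. In aclarubicin replicate 2 these medians were 52.3 and 58.5. They lay between the regions called in all 4 lists, at 74.4 and 75.04 in the 2 aclarubicin lists, and those called in neither daunorubicin list, at 37.2 and 37.3. The median over the whole aclarubicin consensus was 57.7 and 58.0, close to the replicate 2 members and above the replicate 1 members.

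The spread among members was wide. In aclarubicin replicate 1, the middle 80% of replicate 2 members lay between percentiles 24.5 and 84.9, and that of replicate 1 members between 14.05 and 84.2. The extremes were represented too. In that list, 50 replicate 2 members (5.56%, 4.24% to 7.25%) and 26 replicate 1 members (5.46%, 3.75% to 7.88%) belonged to the strongest 10% of peaks. The weakest 10% held 17 replicate 2 members (1.89%) and 33 replicate 1 members (6.93%). The −log10 q that the authors gave for a peak was above 20 in aclarubicin replicate 1 at 61.1% of replicate 2 members and 59.5% of replicate 1 members. Most members were thus far above the lowest −log10 q of that list, 2.04.

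In the daunorubicin list that called them, the same regions stood mostly in the lower part. The daunorubicin lists are shorter, at 5886 and 6638 peaks against 10633 and 10711 under aclarubicin. A percentile is therefore compared between classes within a list. Its difference between the drugs is not read as a fall in rank. The median fold percentile was 21.2 for replicate 1 members in daunorubicin replicate 1 (middle 80%, 3.33 to 56.2) and 30.7 for replicate 2 members in daunorubicin replicate 2 (5.78 to 67.7). Regions called in all 4 lists had medians of 60.4 and 63.1 there. The weakest 10% of daunorubicin peaks held 26.9% of the replicate 1 members (23.1% to 31.0%) and 18% of the replicate 2 members (15.6% to 20.6%). The strongest 10% held 1 replicate 1 member and 10 replicate 2 members. The median −log10 q was 9.496 and 11.4, against 22.4 and 25.4 at regions called in all 4 lists. A −log10 q under 10 was found at 54.2% of replicate 1 members and 39.6% of replicate 2 members. A value under 5 was found at 8.19% and 2.89%. At regions called in all 4 lists, the shares under 10 were 9.12% and 7.09%, and those under 5 were 0.485% and 0.801%. The lowest −log10 q in the 2 daunorubicin lists was 2.21 and 2.06. Few of the members' peaks lay directly at the threshold, but more of them lay near it than at regions called in all 4 lists.

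**Figure D1:**
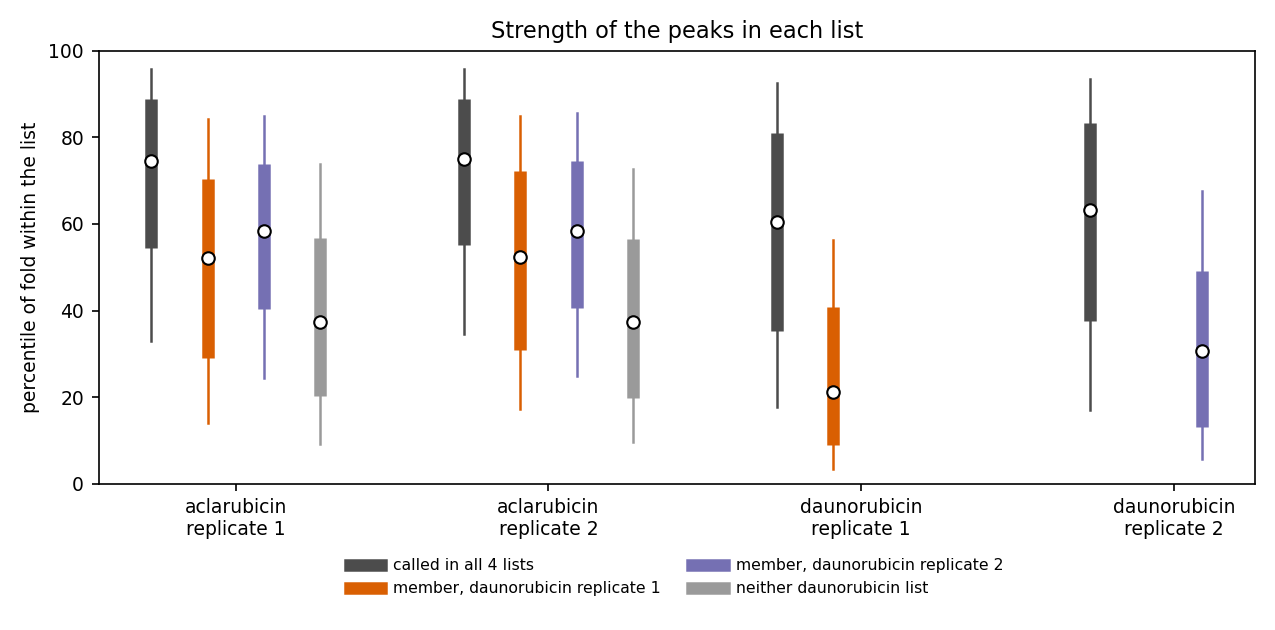
Percentile of fold within each list (y axis) for the 4 lists (x axis); circles are medians, thick bars the middle 50% and thin bars the middle 80% of regions. Members sit between the other classes under aclarubicin, with medians of 52.0 to 58.5. They sit low in the daunorubicin list that called them, with medians of 21.2 and 30.7. The daunorubicin lists are shorter, so percentiles are compared between classes within a list. A region without a peak has no value.

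The members' peaks were also narrow under daunorubicin. Their median width was 275 bp in daunorubicin replicate 1 and 282 bp in replicate 2, where the shortest peaks of the lists were 232 and 233 bp long. The same regions had median widths of 376.5 and 383 bp (replicate 1 members) and 360 and 375.5 bp (replicate 2 members) in the 2 aclarubicin lists. Regions called in all 4 lists were wider in every list, with medians of 431 and 447 bp under aclarubicin and 337 and 358 bp under daunorubicin. Only 4 members held more than 1 peak in any list.

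Aclarubicin values at the members were repeatable. Spearman's rho of the fold between the 2 aclarubicin replicates was 0.865 across the 476 replicate 1 members and 0.807 across the 900 replicate 2 members, which are regions of the same 2 libraries and not independent replicates. The difference between the aclarubicin replicates on the log2 scale had a median of -0.0068 and -0.0049 and an SD across regions of 0.27 in both sets. The fold under daunorubicin was lower than the mean of the aclarubicin replicates. The median log2 difference was -0.43 at replicate 1 members (SD 0.46) and -0.30 at replicate 2 members (SD 0.43). At regions called in all 4 lists it was -0.35 in daunorubicin replicate 1 and -0.20 in replicate 2 (SD 0.45 in both). The rule chose regions by these calls, so the differences are a description only. The daunorubicin fold lay below both aclarubicin values at 356 of 476 replicate 1 members (74.8%) and above both at 50. At replicate 2 members it lay below both at 614 of 900 (68.2%) and above both at 137. The corresponding shares below both at regions called in all 4 lists were 72.1% in daunorubicin replicate 1 and 60.4% in replicate 2. The rank order of members followed aclarubicin loosely, with a rho of 0.471 and 0.418 between daunorubicin and aclarubicin fold. At regions called in all 4 lists these values were 0.546 and 0.553. Between the aclarubicin replicates, rho was 0.899 at regions called in all 4 lists and 0.85 at those in neither daunorubicin list.

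The fold divides by a local background, so the number of sequenced fragments over the summit was also examined. This number and the background were back-calculated from the fold and p-value of a peak, on the assumption of a common peak-calling formula. At replicate 1 members the median was 45 and 48 fragments in the aclarubicin replicates and 24 in daunorubicin replicate 1. At replicate 2 members it was 41 and 44 fragments, and 23 in daunorubicin replicate 2. Relative depth was estimated from the lowest background and the shortest width in a list, at 0.997 and 0.814 of aclarubicin replicate 1 for the 2 daunorubicin libraries. It is 1 estimate among others: it puts daunorubicin replicate 2 at 0.816 of replicate 1, whereas the median ratio of their fragments at regions called in all 4 lists was 1.02. Scaled by the estimated depth, the median ratio of daunorubicin to aclarubicin fragments was 0.547 (middle 50%, 0.415 to 0.727) at replicate 1 members and 0.693 (0.496 to 0.916) at replicate 2 members. Regions called in all 4 lists had ratios of 0.543 in daunorubicin replicate 1 and 0.688 in replicate 2. Without scaling for depth, the ratio at replicate 2 members was 0.552, next to 0.535 at replicate 1 members.

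The members' share was lower where aclarubicin signal was higher. Among consensus regions in the lowest decile of aclarubicin fragments (median 21.6), 20.6% were members (18.1% to 23.4%). In the third decile 21.9% were members, and in the highest decile (median 182.5) 4.08% (2.96% to 5.59%). The share called in all 4 lists was 14.7% in the lowest and 91.1% in the highest decile. Thus the class was most frequent at weak and middling sites. Ranked by fold percentile instead, the share was highest in the middle, at 21.3% in the fifth decile, with 9.29% in the lowest decile and 5.10% in the highest.

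Within deciles of aclarubicin fragments, the members held fewer daunorubicin fragments than the regions called in both daunorubicin lists. In the lowest decile of aclarubicin fragments the median ratio was 0.82 at replicate 1 members and 1.13 at regions called in all 4 lists. In the highest decile it was 0.18 and 0.40. For daunorubicin replicate 2 the ratios were 1.08 against 1.48 in the lowest decile and 0.25 against 0.51 in the highest. By construction, a weak aclarubicin site needed a high ratio to be called at all under daunorubicin, so nothing is read from the falling course of these ratios. The gap between the classes is tied to the rule too. Regions called in all 4 lists had to pass in both daunorubicin lists, whereas members did not pass in 1 of them. The gap is therefore a description only.

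**Figure D2:**
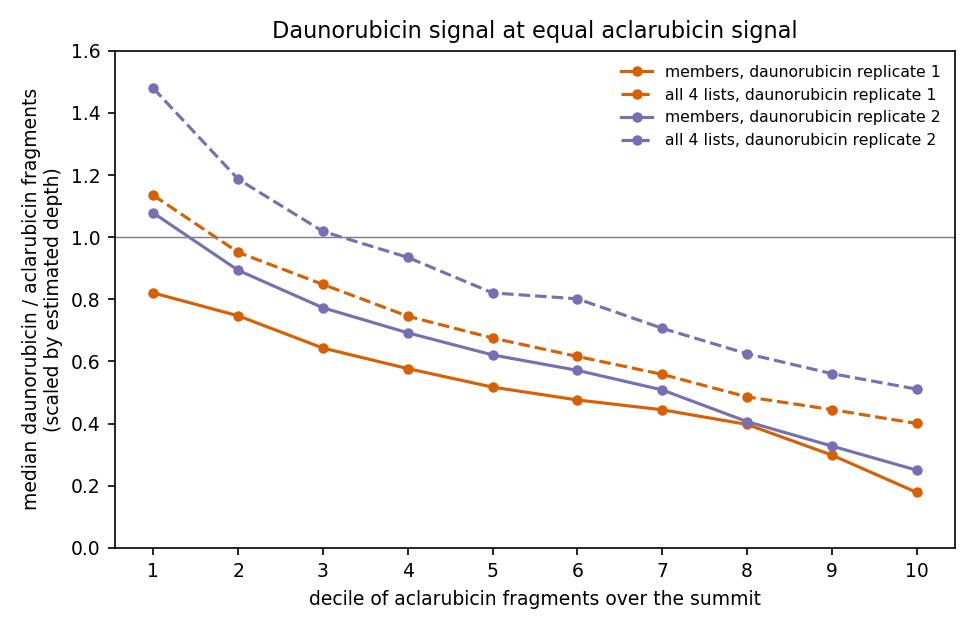
Median ratio of daunorubicin to aclarubicin fragments scaled by the estimated depth (y axis) in each decile of aclarubicin fragments (x axis); solid lines are members, dashed lines regions called in all 4 lists, and colours the 2 daunorubicin replicates. In each decile the members lie below the regions called in all 4 lists of the same replicate, from 0.82 against 1.13 down to 0.18 against 0.40 in replicate 1. The calls that define the classes are tied to this gap, so it is a description only.

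The ratio of replicate 2 to replicate 1 members varied with the local background, although the backgrounds of the 2 sets overlapped widely. The background is the number of fragments the caller expected at the peak. In aclarubicin replicate 1 its median was 4.85 fragments at replicate 1 members (middle 50%, 2.99 to 8.15), 4.16 at replicate 2 members (2.53 to 6.96), 7.12 at regions called in all 4 lists and 5.39 at those in neither daunorubicin list. In the decile of consensus regions with the lowest background (median 1.93), 54 were replicate 1 members and 167 were replicate 2 members. In the decile with the highest background (median 16.4), the numbers were 37 and 40. The ratio of replicate 2 to replicate 1 members thus went from 3.09 to 1.08. By aclarubicin fragments the ratio had no such course, with 2.08 in the lowest decile, 1.48 in the sixth and 1.77 in the highest. By fold percentile it was 0.708 in the lowest decile, 2.62 in the fifth and 2 in the highest. The lowest background of a list was 1.66 in daunorubicin replicate 1 and 1.36 in replicate 2. Under the assumed formula the background enters the p-value of each call. The part of this difference in the ratio of replicate 2 to replicate 1 members was not tested. The labels name no control library, and whether the background includes fragments of the peak itself was not tested.

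**Figure D3:**
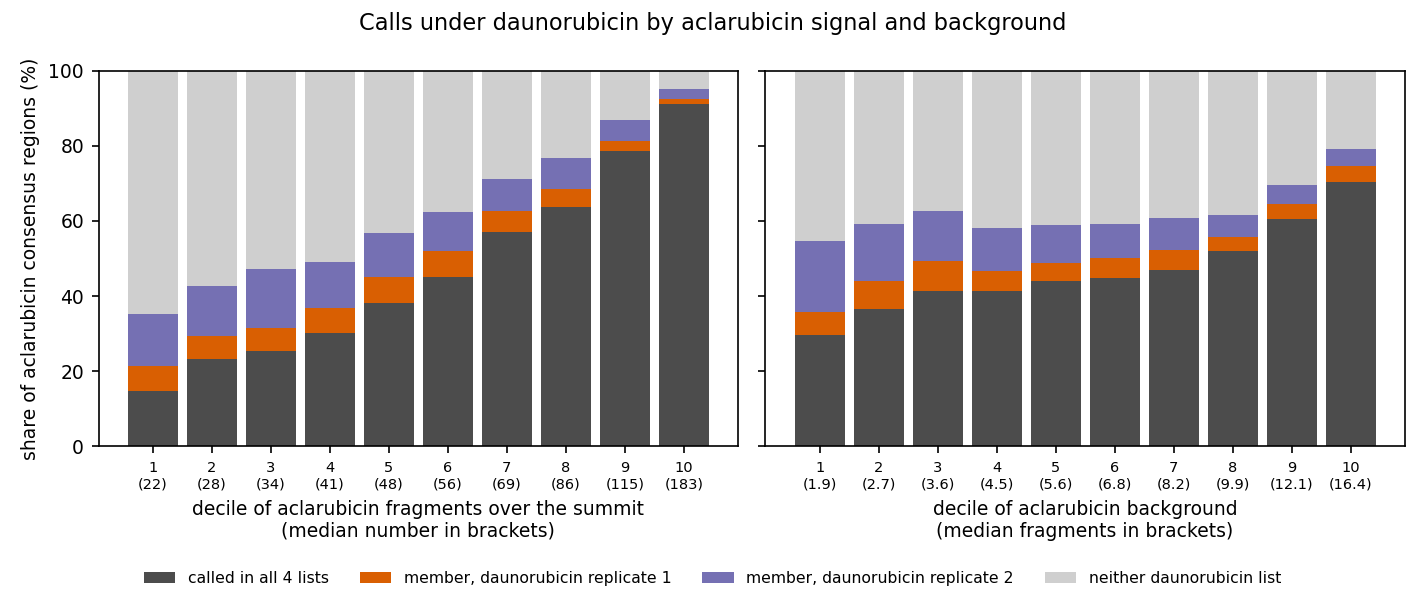
Share of aclarubicin consensus regions in each class of call (y axis) by decile of aclarubicin fragments over the summit (left) and of aclarubicin background (right). Replicate 2 members shrink from 18.9% to 4.53% of regions as the background rises, and replicate 1 members from 6.12% to 4.19%.

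The distance from a member to the nearest peak of the other daunorubicin list was measured next. The nearest peak of the list that lacked the member was within 1 kb at 13 of 476 replicate 1 members (2.73%, 1.603% to 4.62%) and at 9 of 900 replicate 2 members (1.00%, 0.527% to 1.89%). Within 10 kb the shares were 18.1% (14.9% to 21.8%) and 10.9% (9.02% to 13.1%). Regions called in neither daunorubicin list had a peak of the replicate 2 list within 1 kb in 1.44% of cases (1.09% to 1.91%) and within 10 kb in 13.6% (12.5% to 14.8%), both below the replicate 1 members. For the replicate 1 list these shares were 1.38% (1.04% to 1.84%) and 12.4% (11.4% to 13.6%), beside the 1.00% and 10.9% of replicate 2 members. These differences were not tested. The median distance was 60.2 kb for replicate 1 members, whose lacking list is the longer one, and 93.2 kb for replicate 2 members.

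Summit positions were not part of the rule beyond the overlap of the intervals. Between the 2 aclarubicin replicates the summits lay a median of 19 bp apart at replicate 1 members and 16 bp apart at replicate 2 members, against 13 bp at regions called in all 4 lists. From aclarubicin replicates 1 and 2 to daunorubicin the distance was 28 and 27 bp at replicate 1 members, and 24 and 24 bp at replicate 2 members. At regions called in all 4 lists it was 16 bp in each of the 4 pairs of drugs and 17 bp between the daunorubicin replicates. The distance also moved with the number of fragments. Among peaks of 19 to 31 fragments in daunorubicin replicate 1, the distance to aclarubicin was 26.5 and 27 bp at 262 members and 21 and 20 bp at 1022 regions called in all 4 lists. Among peaks of 19 to 30 fragments in daunorubicin replicate 2 it was 25 and 24 bp at 515 members and 22 and 21 bp at 869 regions called in all 4 lists. Distances over 100 bp to aclarubicin replicate 1 were found at 53 replicate 1 members (11.1%) and 37 replicate 2 members (4.11%). In the same classes, the aclarubicin replicates were over 100 bp apart at 22 (4.62%) and 8 (0.889%) members.

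Members were spread over all 23 chromosomes examined. The share of consensus regions that were members ranged from 10.8% on chromosome 19 to 26.8% on chromosome 13, with a median of 15.6%. Chromosome 19, the most gene-dense human chromosome, held 77 members among 712 consensus regions (8.74% to 13.3%). Chromosome 13, which is gene-poor, held 22 among 82 (18.4% to 37.3%). Chromosomes 4 and 5 followed with 20% (15.6% to 25.2%) and 19.8% (16.2% to 24.0%). Across chromosomes, the share was lower with a higher number of protein-coding genes per Mb (Pearson's r -0.58, Spearman's rho -0.54, n = 23 chromosomes that share the same 4 libraries, given as a description). It was likewise lower with a higher median number of aclarubicin fragments at the chromosome's regions (r -0.72, rho -0.71). The share called in neither daunorubicin list was also lower with gene density (r -0.53, rho -0.54) and with fragments (r -0.55, rho -0.51). The share called in all 4 lists was higher with both (r 0.72 and 0.82). The course is thus not particular to the members. The share of members that each chromosome's mix of fragment deciles would give was 12.9% on chromosome 19, 18.5% on chromosome 13, 17.5% on chromosome 4 and 16.9% on chromosome 5. This value rests on the decile shares of these same regions. It lay within the Wilson interval of the observed share on all 23 chromosomes, and the genome-wide 15.6% lay within it on 19. Several intervals are wide, so these counts are no test. Gene density and aclarubicin signal cannot be told apart here.

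**Figure D4:**
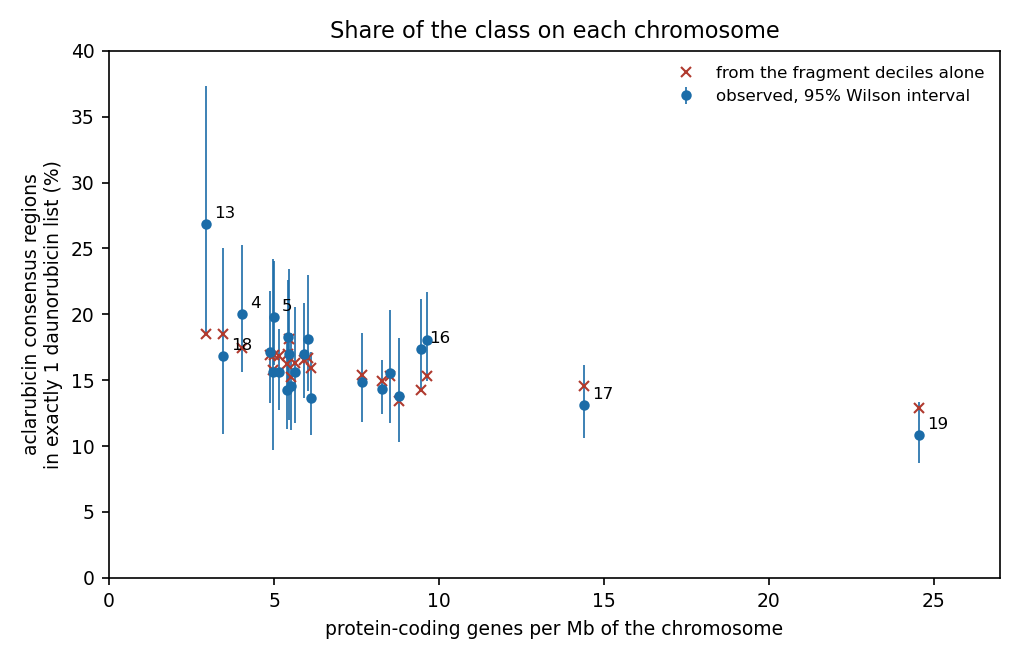
Share of aclarubicin consensus regions that are members (y axis, points with 95% Wilson intervals) against protein-coding genes per Mb (x axis) for 23 chromosomes; crosses give the share that follows from the aclarubicin fragment deciles of the chromosome's regions. Chromosome 13 is highest at 26.8% and chromosome 19 lowest at 10.8%. Each cross lies within its chromosome's interval, but the crosses come from the same regions, so this is no test.

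The balance between the 2 sets also varied by chromosome. Replicate 2 members outnumbered replicate 1 members on each of the 23 chromosomes, from 21 against 19 on chromosome 22 (52.5%) and 28 against 25 on chromosome 15 (52.8%) to 17 against 5 on chromosome 13 (77.3%). Near chromosome ends, within 5 Mb, 173 of 1307 consensus regions were members (13.2%, 11.5% to 15.2%), against 16.01% elsewhere (15.2% to 16.9%). From the fragment deciles alone, these shares would be 14.8% and 15.7%. Within 5 Mb of a centromere gap the share was 16.8% (13.6% to 20.5%), against 15.5% elsewhere. The nearest other merged region lay within 10 kb of 28.8% of replicate 1 members (24.9% to 33.0%) and 22.7% of replicate 2 members (20.1% to 25.5%), beside 27.6% of regions called in all 4 lists and 26.5% of those in neither daunorubicin list.

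The members with the strongest aclarubicin peaks are named by their mean fold percentile. Coordinates are 1-based in GRCh37, the build named in the submitters' processing notes. The highest of all members was a replicate 2 member at chr22:21792197-21792707. Its fold was 29.0 and 28.8 in the aclarubicin replicates and 8.47 in daunorubicin replicate 2, with −log10 q of 211, 218 and 12.7. It held 192 and 200 fragments under aclarubicin and 19 under daunorubicin, a ratio of 0.12 after scaling for depth. The next, chr5:72251493-72252054, had folds of 18.6 and 22.3 under aclarubicin and 4.64 under daunorubicin, with 156, 227 and 19 fragments and a ratio of 0.12. Both were among the strongest 1% of each aclarubicin list, and the second stood at percentile 5.69 of the daunorubicin list.

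The other replicate 2 members of this group had higher depth-scaled fragment ratios, from 0.22 to 0.48. The region chr9:4339255-4339733 had folds of 20.5 and 17.5 under aclarubicin and 10.6 under daunorubicin, with a fragment ratio of 0.48. At chr3:155761625-155762127 the folds were 18.3 and 18.4, and 8.19 under daunorubicin. At chr20:23031416-23031862 they were 18.4 and 17.0, and 7.28 under daunorubicin. In each of these 5 regions the daunorubicin fold lay below both aclarubicin values.

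Among replicate 1 members, the strongest under aclarubicin was chr5:40688232-40688605, with folds of 17.2 and 19.8 and a daunorubicin fold of 9.17. It was followed by chr12:97677057-97677480, with 17.3 and 17.4 against 7.47. The third, chr10:27649464-27649847, had 16.2 and 18.2 against 8.74. The region chr5:180295938-180296421 had 140 and 143 aclarubicin fragments and 27 daunorubicin fragments, a ratio of 0.20, with folds of 16.7, 15.5 and 6.26. At chr11:10098367-10098811 the folds were 15.8 and 16.1, against 6.02. All 5 lay lower under daunorubicin than in either aclarubicin replicate, a direction tied to the same choice.

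A few members ranked high in the daunorubicin list that called them although the other list had no peak. The highest, chr22:50323215-50323740, had a fold of 13.6 in daunorubicin replicate 1 (percentile 97.4) and of 6.95 and 5.80 under aclarubicin, with 77 fragments against 45 and 39. It was higher under daunorubicin replicate 1 than in either aclarubicin replicate, at a fragment ratio of 1.87, and had no peak in daunorubicin replicate 2. The next replicate 1 members, chrX:52950262-52950781 and chr1:102900030-102900460, had daunorubicin folds of 10.9 and 10.5. Among replicate 2 members, chr12:2049135-2049547 had a daunorubicin fold of 13.5 against 9.18 and 10.97 under aclarubicin. The region chrX:150320127-150320491 had 13.4 against 9.53 and 10.5. At chr9:89252360-89252775 the 13.4 under daunorubicin lay between the 12.8 and 14.2 under aclarubicin.

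At the other end are the members nearest the threshold. The lowest −log10 q among replicate 1 members in their daunorubicin list was 2.68, at chr11:70037600-70038144, a region with 48.0 and 32.8 under aclarubicin. It was followed by 2.72 at chr7:100640690-100641579 and 2.91 at chr1:115681528-115681946. Among replicate 2 members the lowest values were 2.60 at chr1:202104291-202104805, 3.14 at chr12:32909062-32909488 and 3.29 at chr18:59854924-59855618. The first of these had 32.4 and 37.2 under aclarubicin. By the aclarubicin −log10 q, the members just inside were chr7:100640690-100641579 at 4.44 and 2.56, chr11:2326485-2326909 at 2.58 and 8.69, and chr17:15848439-15848971 at 3.54 and 10.1. Other regions outside the class had a peak in only 1 aclarubicin and 1 daunorubicin list. The lowest −log10 q in the calling aclarubicin list were 2.07 at chr5:17586679-17588388, 2.17 at chr20:29650259-29650653 and 2.81 at chr22:23104275-23104629. These regions have no value in the other aclarubicin list, so how near they came to membership is unknown. On the other side, the region called in all 4 lists with the weakest daunorubicin call was chr22:23244619-23246079, with −log10 q of 2.62 and 5.63 under daunorubicin. The next was chr4:141444778-141445532, with folds of 18.5 and 15.0 under aclarubicin, 11.5 and 2.84 being its daunorubicin −log10 q.

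Members near genes were sought at 73 loci with positions in GRCh37 entered by hand. Of these, 62 were used, those whose chromosome and gene span matched the RefSeq table within 10%. Within 100 kb of them lay 145 consensus regions, of which 16 were members (11.03%, 6.91% to 17.2%, beside 15.6% over all consensus regions), 75 were called in all 4 lists and 54 in neither daunorubicin list. The daunorubicin fold lay below both aclarubicin values at 9 of the 16, above both at 6 and between them at 1. Over all replicate 1 members it lay below both at 74.8% and above both at 10.5%. Over all replicate 2 members these shares were 68.2% and 15.2%. The counts near the loci are small, so nothing is read from them. Distance to a gene does not show that the site acts on it.

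Blood transcription factor genes had 2 members among 42 consensus regions around 14 genes. GATA2 encodes a zinc-finger factor of blood stem and progenitor cells. A replicate 2 member at chr3:128216823-128217209, 4.99 kb upstream of its start, had folds of 9.70 and 7.48 under aclarubicin and 7.46 under daunorubicin. Its fragments were 90, 78 and 37, so that the fold differed little from the lower aclarubicin value while the depth-scaled fragment ratio was 0.55. RUNX1 encodes a core factor of blood development. A replicate 2 member 94.1 kb past its 3′ end, chr21:36065526-36065963, was higher under daunorubicin, with folds of 9.21, 8.80 and 12.1 and a fragment ratio of 1.47. The 5 globin genes had 3 consensus regions, all called in all 4 lists. Near the 7 erythroid genes 1 of 15 consensus regions was a member, chr17:42428095-42428531, at 82.6 kb from SLC4A1, the gene of the red cell anion exchanger. Its folds were 4.15, 5.48 and 6.51.

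Genes of growth and survival held 8 members among 47 consensus regions around 14 genes. BCL6 encodes a transcriptional repressor of lymphoid cells. It had a pair of replicate 2 members. The one 2.47 kb upstream of its start, chr3:187465742-187466217, had folds of 14.3 and 12.98 under aclarubicin and 5.92 under daunorubicin, with 110, 128 and 32 fragments. The one past the 3′ end, chr3:187432110-187432594, had 9.73, 15.0 and 8.31. Both were lower under daunorubicin than in either aclarubicin replicate. CCND1 encodes cyclin D1, which drives entry into the cell cycle. A replicate 1 member within the gene, chr11:69458114-69458480, had nearly equal folds of 7.51, 7.43 and 7.23, although the fragments were 88, 78 and 33. A replicate 2 member 15.7 kb from the gene, chr11:69484893-69485443, had 11.7, 10.2 and 5.38. At BCL2L1, which encodes the survival protein BCL-xL, a replicate 2 member 1.86 kb past the 3′ end, chr20:30249251-30250399, had 7.34, 7.04 and 4.36.

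BCR is the partner of ABL1 in the BCR-ABL1 fusion of K562, which carries extra copies of the fused segment. It held a pair of members inside the gene. At chr22:23623989-23624510, a replicate 2 member, the fold was only 2.56 and 2.64 under aclarubicin and 2.83 under daunorubicin. The fragments were 145, 155 and 82 over backgrounds of 56.1, 58.2 and 28.3, the highest aclarubicin background of any member. At chr22:23631245-23632170, a replicate 1 member, the folds were 2.28, 2.39 and 2.34, with 74, 80 and 49 fragments. The number of fragments here was above the median of the members while the fold was near the bottom of each list. The part of copy number in these values was not tested. Another member, 67.8 kb beyond the gene at chr22:23728038-23728476, had an ordinary background of 4.60 and 4.43 and folds of 9.11, 10.7 and 5.29. The next highest backgrounds, chosen after the values were seen, were chr9:134000645-134001766 at 41.1 and 42.7 fragments, and chr22:19958120-19958499 at 39.8 and 42.9. These were followed by chr22:23226080-23226629 at 37.6 and 39.9 and chr22:22220795-22221274 at 34.7 and 35.9. Of these 5 members with the highest background, 4 lay on chromosome 22 and 1 on chromosome 9. Chromosome 22 held 40 members among 290 consensus regions. The other classes reached higher backgrounds in aclarubicin replicate 1. The highest was 97.9 at regions called in all 4 lists and 74.1 at those in neither daunorubicin list. Their chromosomes were not counted, so the position of these 5 is not called particular to the members.

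**Figure D5:**
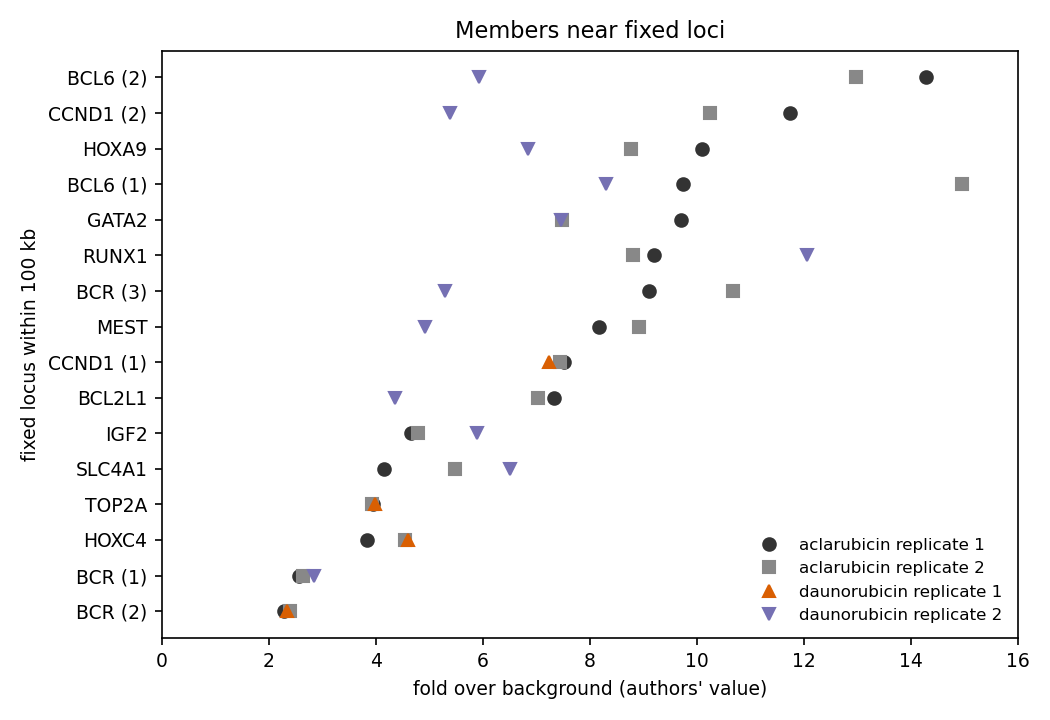
Authors' fold over background (x axis) in each list that called the region, for the 16 members within 100 kb of a fixed locus (y axis; numbers in brackets separate members of 1 locus by position, and the HOX members are labelled by HOXA9 and HOXC4). The BCL6 member upstream of the gene start has 14.3 and 12.98 under aclarubicin and 5.92 under daunorubicin, whereas the members inside BCR sit between 2.28 and 2.83 in each list that called them.

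The HOX clusters encode body-axis factors and hold well-known CTCF boundaries. Around 5 HOX genes, 2 of 9 consensus regions were members. The replicate 2 member chr7:27219317-27219698, 14.4 kb upstream of the start of HOXA9, had folds of 10.1 and 8.76 under aclarubicin and 6.84 under daunorubicin. The replicate 1 member chr12:54382900-54383249, 27.6 kb upstream of HOXC4, had 3.83, 4.54 and 4.60. Imprinted genes are expressed from the chromosome of 1 parent. Around 9 of them, 2 of 14 consensus regions were members. The replicate 2 member inside MEST, chr7:130130624-130131061, had 8.18, 8.91 and 4.91. The one 45.3 kb from IGF2, chr11:2216116-2216558, had 4.65, 4.79 and 5.88. TOP2A encodes topoisomerase II alpha, which daunorubicin traps. Near the 3 genes of drug targets and transport, the only member among 6 consensus regions lay 29.7 kb past the 3′ end of TOP2A, at chr17:38514748-38515115, a replicate 1 member with folds of 3.95, 3.93 and 3.97. None of the 9 consensus regions around the 5 CTCF and cohesin genes was a member; 3 were called in all 4 lists and 6 in neither daunorubicin list.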

How the data were processed

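The data are 4 CTCF ChIP-seq peak lists, 1 for each library, with replicates not pooled. Per the submitters' processing notes, Bowtie2, Picard and bedtools were used with GRCh37 (hg19). The peak caller, its threshold and any control library are not given in the sources used here. By the narrowPeak layout, the authors deposited for each peak a fold ratio over background, −log10 p, −log10 q, a score and the summit. In each list at least 99.9% of the deposited scores equalled 10 times the −log10 q, cut to an integer. In all, 6 peaks off chromosomes 1 to 22 and X were left out of the regions.

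Intervals sharing at least 1 bp were merged. A region with several peaks in a list took the peak of highest fold. Fragments (k) and background (λ) were solved from fold = (k + 1)/(λ + 1) and the Poisson p of more than k fragments, an assumption about the caller under which 100% of peaks gave an integer k (tolerance 0.02). Relative depth was the lowest λ of a list over its shortest width: 1.04 for aclarubicin replicate 2, 0.997 and 0.814 for daunorubicin replicates 1 and 2. The merging and solving steps were tested on simulated data and, for merging, against bedtools 2.31.1.

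The calls chose the members, so no test was run; the exact test of 2 against 2 libraries would need a value in all 4. Wilson intervals (95%) treat regions as independent, which neighbours are not. Named regions followed a rule: in each set, the 5 with the highest mean aclarubicin percentile, the 3 highest and the 3 with the lowest −log10 q in the calling daunorubicin list, those nearest the aclarubicin threshold, and members within 100 kb of a fixed locus. The members, lists and rule were chosen with earlier results of these data known. The regions called in all 4 lists with the weakest daunorubicin calls and those of highest background were added after. Gene counts per chromosome and gene names come from RefSeq GRCh38.p14; chromosome lengths, centromere gaps and gene positions of GRCh37 were entered by hand, and 0 peaks ran past a chromosome end or lay inside a gap. Upstream and downstream were given where RefSeq's promoter table held the gene's strand. Scaling members to the list that lacks them is not reported, since each had already passed a similar threshold by the rule. Sequence, motif and promoter annotation was not analysed here. Python 3.11.15, numpy 2.4.6, pandas 2.3.3, scipy 1.17.1 and matplotlib 3.10.9 were used.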

Additional observations from a re-analysis of the deposited data

How the results depend on the processing

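No paired analysis was possible because no test was planned and no member has a value in all 4 libraries. The number of members depended on list length. With each list reduced to its 5886 peaks of highest −log10 p there were 707 members in all and 378 replicate 2 members, against 1376 and 900, because weaker aclarubicin and daunorubicin replicate 2 peaks no longer counted. The aclarubicin consensus was smaller as well, at 5200 regions against 8823. The members' share of it was 13.6%, against 15.6%. Under the other alternatives that kept all libraries (−log10 q of at least 5 or 10, fold of at least 5, a 50% reciprocal overlap, summits within 100 bp, and a wider gap when merging) the count lay between 1100 and 1387. The members' share of the consensus in these alternatives lay between 14.4% and 16.7%. Leaving out 1 aclarubicin replicate gave 1598 and 1534 members, with 573 and 523 in replicate 1 and 1025 and 1011 in replicate 2. The 1598 and 1534 members were 14.9% and 14.4% of the regions called in the aclarubicin list that was kept. Leaving out a daunorubicin replicate gives no value, since the class needs both lists. Replicate 2 members outnumbered replicate 1 members in all 10 alternatives, by 1.15 times with equal lists and by up to 2.52 times with a fold of at least 5. The members' median aclarubicin percentile, 56.5, lay between 51.5 by −log10 p and 70.0 with equal lists. Uncalled regions carry no signal in these lists, so a near miss and an empty site look alike.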

Other observations

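The nearest consensus region of each member was classed by its own calls. Among members with another aclarubicin consensus region within 10 kb, the nearest such region was called in all 4 lists for 48 of 93 replicate 1 members (51.6%) and 68 of 140 replicate 2 members (48.6%). It was a replicate 1 member itself for 4 of the 93 replicate 1 members (4.30%), and a replicate 2 member for 15 of them (16.1%). Of the 140 replicate 2 members, 8 had a replicate 2 member as nearest neighbour (5.71%) and 15 a replicate 1 member (10.7%). Over all consensus regions, 46.7% were called in all 4 lists, 5.39% were replicate 1 members and 10.2% replicate 2 members. The nearest region within 10 kb was called in all 4 lists for 52.9% of regions called in all 4 lists. For regions called in neither daunorubicin list this was 45.9%. The counts within 10 kb are small and were not tested, so nothing is read from them. Within 100 kb, the nearest region was of the same set for 16 of 325 replicate 1 members (4.92%) and 55 of 573 replicate 2 members (9.60%). The shares within 100 kb are near the 5.39% and 10.2% that the 2 sets make up of all consensus regions, so nothing particular to the members is read from them.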
